A study of Homo sapiens with 20 samples.

Results

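IGF2BP3 binding regions whose share of the recovered reads was at least halved by arsenite were taken from 6 PAR-CLIP libraries of HCT116 cells, a human colorectal carcinoma line. Clusters, the stretches of reads with T-to-C conversions that mark crosslinked RNA, were merged across the 3 arsenite and 3 PBS libraries where they overlapped by 1 nt or more on the same strand, which gave 47942 regions outside the mitochondrial genome. A region's share is its cluster reads divided by all cluster reads of the library, and it is 0 where no cluster was called. Of these regions, 5937 had 40 or more reads over the 6 libraries and a cluster in PBS replicates 1 and 3, and are called eligible below. The 1263 of them whose mean arsenite share was at most 0.5 times the mean PBS share are the members, 21.3% of those eligible. The other 4674 eligible regions serve for comparison. Members were chosen by these measured shares. The arsenite and PBS values below are therefore a description and carry no test.

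All cells were the Tet-OsTIR1 derivative of HCT116, with PURO in the genotype label, and all received 100 µM 4-thiouridine for 15 h before crosslinking at 365 nm with 0.15 J/cm2. Arsenite was given at 250 µM for 2 h (the treatment protocol writes arsenate) and its control was PBS, diluted 1 in 1000, for 2 h. Endoplasmic reticulum stress was caused by tunicamycin (TM), which blocks N-linked glycosylation, at 5 µg/mL over 1 h or 4 h. Cells given DMSO, diluted 1 in 1000, for 4 h were the control for both times. In each group 3 immunoprecipitations used anti-IGF2BP3 and 1 used control IgG, 20 libraries in all. Nothing in the labels says whether the libraries of a group came from separate cultures, so the spread between them may be technical. By their library names the PBS and arsenite libraries form 1 set, replicates 1 and 2 of tunicamycin and DMSO another, and their replicate 3 libraries a set of their own. Of the epithelial markers, EPCAM had 0 to 35 cluster reads per library, KRT8 5 to 31, KRT18 0 to 11 and CDH1 0 to 12, while VIL1, CDX1 and LGR5, like PTPRC, COL1A1 and PECAM1 of other cell types, had none.

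IGF2BP3 is an RNA-binding protein of the oncofetal IMP family, with RRM and KH domains. It binds mRNAs largely in their 3′ untranslated regions, prefers short CA-rich elements such as CAT (CAU in RNA), and is known for acting on the stability, localisation and translation of its targets in tumour cells. Arsenite causes oxidative stress, slows translation initiation and drives mRNAs into stress granules, in which IMP proteins are found. PAR-CLIP recovers crosslinked RNA, so a read share depends both on the amount of an RNA in the cell and on the part of it that is bound. RNA levels were not analysed here, and fewer bound molecules and less RNA cannot be told apart from the shares alone.

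The sequences shown are 30 nt around the mode position deposited for the member's largest cluster. They run 5′ to 3′ on the RNA strand as deposited (T for U, build hg38), with every CAT in capitals. The cluster caller, and so how this mode was set, is not given in the sources used here. The first 3 are from the 4 members with the highest PBS share and the next 4 those with the lowest arsenite ratios among members with a cluster in all 3 PBS libraries. The last 4 had the highest PBS share among members that stayed low under every scaling used below and whose libraries did not overlap, a choice made after the values were seen.
HMGA1, chr6:34246002-34246031, plus strand: CATggcaggctgggtgaccgactaccccag
PTP4A1, chr6:63580253-63580282, plus strand: cttagtaagtctaatgaagcttcCATagga
TMED2, chr12:123597157-123597186, plus strand: tgagtccttatgagaaacagcagtatgaat
NUDT3, chr6:34288295-34288324, minus strand: atgtgctgtacagttcagtagagtggtcac
No annotated gene, chr6:132997148-132997177, minus strand: tgtcctcacacaccCATctactatgtccaa
TBL1XR1, chr3:177020837-177020866, minus strand: caCATttcttgttgttgttgttgttgcagt
RPS27A, chr2:55235477-55235506, plus strand: atgaatgtggtgctggggtgtttatggcaa
RHOA, chr3:49360168-49360197, minus strand: aagcacagcccttatgcggttaattttgaa
CAV1, chr7:116560922-116560951, plus strand: CATactttttaaatgtaaagatatttttat
P4HB, chr17:81843866-81843895, minus strand: ggaacctctctgaagtgacacctcacccct
EIF4E, chr4:98880777-98880806, minus strand: aattacagtacaCATccccagaatcCATaa
In such windows, CAT was present in 48.4% of the 1253 members with a cluster of 30 nt or more and in 47.0% of 4625 other eligible regions. CACA stood in 14.8% of the members' windows against 18.2%, and GGAC in 7.98% against 7.33%. The polyadenylation hexamer AATAAA stood in 2.71% against 1.56%, which are 34 and 72 windows. Over the whole largest cluster, with a median length of 97 nt in members and 105 nt in the others, CAT was in 87.3% against 90.7%, CACA in 46.2% against 50.7%, GGAC in 20.6% against 23.8% and AATAAA in 7.68% against 5.97%. The median T content was 33.3% against 31.7%. All motifs were searched on the RNA strand only, each CACA can overlap a CAT by its CA, and a match is a description of letters. For CAT and GGAC, the direction of the difference depended on whether windows of 1 length or whole clusters were compared.

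The members' shares in arsenite ranged from 0.0414 to 0.500 times those in PBS, with a median of 0.374 and quartiles of 0.291 and 0.443. The median over all eligible regions was 0.832 and over the other eligible regions 1.01. Just inside the limit lay KPNA6 (0.4999), OAZ1 (0.4997) and SLC7A5 (0.4992), and just outside it EIF4A1 (0.5001), PLEKHB2 (0.5003) and AMD1 (0.5004), so the limit does not part the regions into separate groups. In 710 members every arsenite library lay below every PBS library. This was so in 17.8% of all eligible regions, and in 347 of the others, as counts of the contrast that chose the members.

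**Figure D1:**
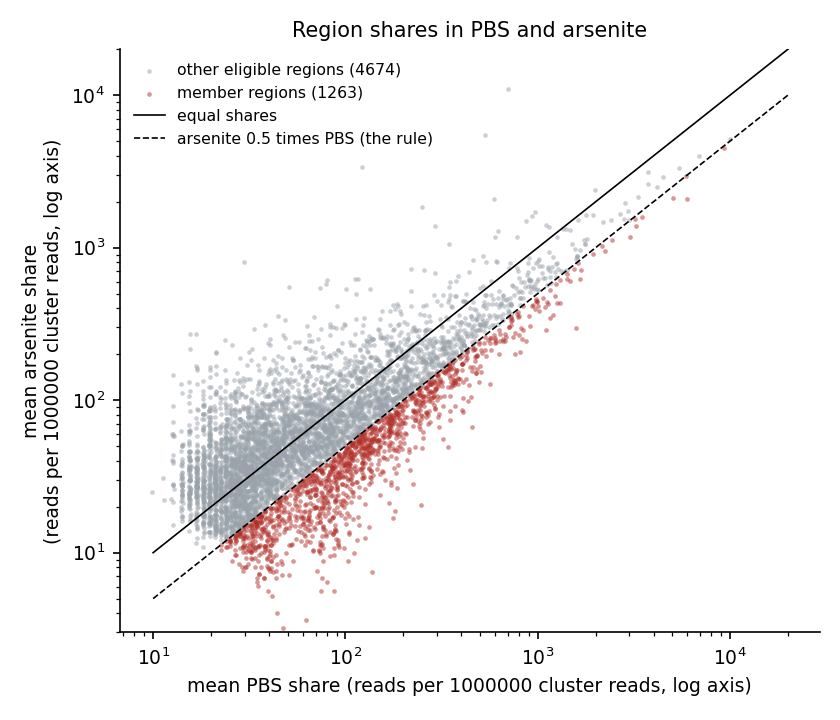
Mean share of each eligible region in the 3 PBS libraries (x) and the 3 arsenite libraries (y), in reads per 1000000 cluster reads on log axes. The 1263 members (red) lie on or below the dashed line at 0.5 times the PBS share at every PBS level, and the 4674 other eligible regions (grey) above it.

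The libraries differed in depth, and the members' values moved with it. The PBS libraries held 244475, 42699 and 229512 cluster reads, and the arsenite libraries 218140, 387850 and 828783. For every 100 counts in the deposited gene table, 57.7, 32.7 and 56.9 reads lay in clusters in PBS and 52.7, 62.2 and 75.5 in arsenite. PBS replicate 2, the smallest, had a cluster in 71.1% of the members and in 27.0% of the other eligible regions. It enters the PBS mean, so a cluster in it raises a region's PBS share, and this difference follows at least in part from the rule. Of its cluster reads 37.0% lay in members and 51.6% in the other eligible regions. Without PBS replicate 2, 1458 regions met the rule and 835 of them were members. For this reason many ratios are also given by the gene count total of each library, and at like depth, which is arsenite replicate 1 against the mean of PBS replicates 1 and 3. The members' median ratio was 0.493 by the gene count total (all eligible 0.991) and 0.412 at like depth (all eligible 0.780). By the gene count total 656 members stayed at or below 0.5 and no other eligible region did (11.0% of eligible regions). At like depth 753 members did, but so did 919 other regions, together 1672 (28.2% of eligible regions). Under both, 529 members and no other region did (8.91% of eligible regions). Cluster reads per 100 gene counts were mostly higher in arsenite than in PBS, so the gene count total raises most ratios. A region above 0.5 under the rule could thus hardly fall to 0.5 by it. The lack of other regions, by the gene count total and under both, was therefore nearly fixed in advance. At like depth 50 members had a ratio over 1, against none by the gene count total.

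Summed over the members, the reads made up 22.5%, 37.0% and 22.5% of the cluster reads in PBS and 11.5%, 10.7% and 9.59% in arsenite. By the gene count total they made up 12.97%, 12.1% and 12.8% in PBS and 6.04%, 6.63% and 7.24% in arsenite, so that PBS replicate 2 stood with the others on this scale. The libraries that had no part in choosing the members lay nearer to PBS than to arsenite on this scale: DMSO had 11.8%, 12.6% and 12.8%, TM 1 h had 10.8%, 12.1% and 12.3%, and TM 4 h had 11.3%, 11.7% and 12.1%. As a share of cluster reads the 9 ranged from 13.7% in TM 4 h replicate 3, the deepest library, to 23.95% in TM 1 h replicate 1, the least deep of them, so all stood above the arsenite libraries and 8 of the 9 below every PBS library. These libraries belong to other library sets than the PBS libraries. On the scale of the gene count total the mean of the PBS libraries was 12.6% ± 0.463, of the arsenite libraries 6.64% ± 0.598, of DMSO 12.4% ± 0.532, of TM 1 h 11.7% ± 0.857 and of TM 4 h 11.7% ± 0.395 (SD, n = 3).

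**Figure D2:**
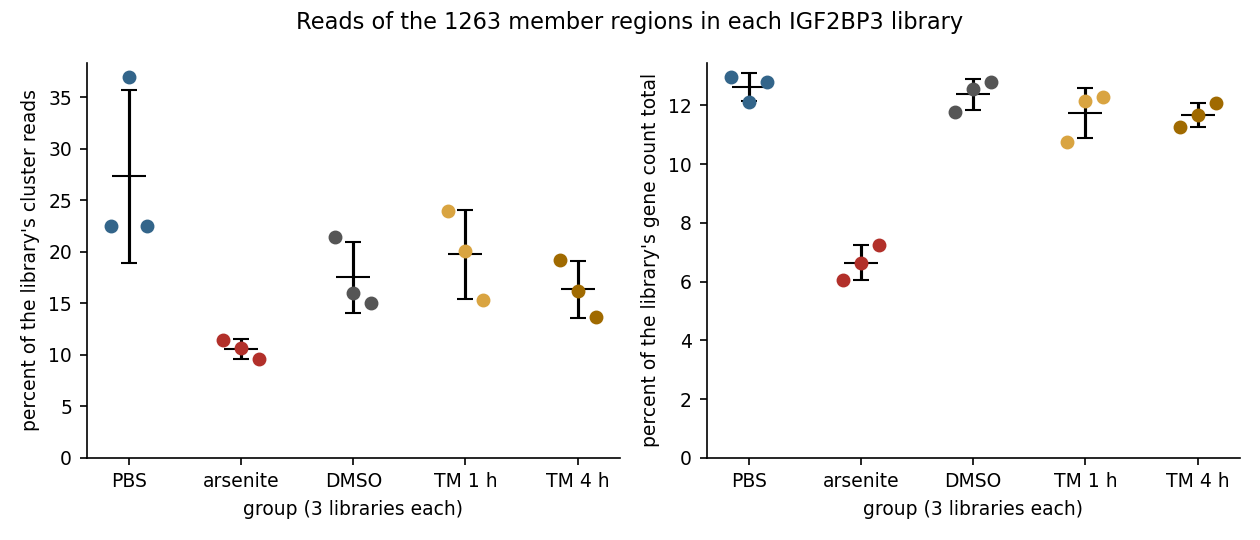
Reads of the 1263 members in each of the 15 anti-IGF2BP3 libraries, as a percent of cluster reads (left) and of the gene count total (right). Points are libraries in replicate order, lines and bars the mean and SD of 3. On the right the arsenite libraries sit at 6.04% to 7.24% and all others at 10.8% or more, and on the left PBS replicate 2 stands apart at 37.0%.

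The share of T-to-C conversions among the members' reads was 7.69% ± 0.286 in PBS and 7.79% ± 0.160 in arsenite (SD, n = 3). In the other eligible regions it was 8.10% ± 0.244 and 8.49% ± 0.149. The members' conversion level thus lay below that of the other regions in both groups, and the arsenite and PBS libraries overlapped in it. For the IgG lists of PBS and arsenite, each file is named for the treatment opposite to that of its sample, so which list belongs to which treatment is uncertain. Of these lists one had a cluster in 12 members and the other in 45, and 54 (4.28%) had one in any of the 5 IgG lists, against 103 (2.20%) of the other eligible regions. HMGA1 had 16 reads in one of the PBS and arsenite IgG lists and 31 in the other, where each anti-IGF2BP3 library of these groups had 594 or more. These IgG lists held 1641 and 2762 cluster reads in that order, and each anti-IGF2BP3 library of these groups 42699 or more. As a share of cluster reads HMGA1 was thus no lower in these IgG lists than in the PBS mean. Members made up 20.05% and 26.97% of the cluster reads of these IgG lists.

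The 12 members with the highest PBS shares had mean shares of 1943 to 9276 RPM (reads per 1000000 cluster reads) in PBS. The HMGA1 region (chr6:34245416-34246231), in the mRNA of a chromatin architectural protein, had 1703, 594 and 1595 reads in PBS and 1239, 1733 and 2836 in arsenite. Its share was 9276 ± 4015 RPM in PBS and 4523 ± 1130 in arsenite (SD, n = 3). The ratio of 0.488 became 0.667 by the gene count total and 0.816 at like depth, the highest on that scale of the 12 members with the highest PBS shares. CCND1 (chr11:69653184-69654026), which encodes cyclin D1, had 741, 202 and 605 reads in PBS and 407, 614 and 1068 in arsenite, with a ratio of 0.456 that became 0.613 and 0.659. TMED2 (chr12:123596897-123597770), a cargo receptor of early secretory vesicles, had 965, 298 and 957 against 589, 795 and 1310 reads and ratios of 0.419, 0.561 and 0.665. In each of these 3 regions the arsenite shares lay below all PBS shares, while the size of the difference shrank on both other scales.

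The other members of this kind were CYB5B, an outer mitochondrial membrane cytochrome (ratio 0.353), the phosphatase PTP4A1 (0.495), the histone H3.3 gene H3-3B (0.429), the EGFR inhibitor ERRFI1 (0.482), the snoRNA host RNA SNHG1 (0.393), the KIT ligand KITLG (0.461), the endoplasmic reticulum thioredoxin TXNDC5 (0.427), MLF2 (0.470) and the lectin chaperone CANX (0.468). In all 12 the libraries of the 2 groups did not overlap. Their ratios ranged from 0.487 to 0.669 by the gene count total and from 0.566 to 0.816 at like depth. Without PBS replicate 2 they ranged from 0.478 to 0.650, and CYB5B alone stayed at or below 0.5. Of the 12, 1 (CYB5B, 0.487) stayed at or below 0.5 by the gene count total and 0 did at like depth. Deep members were less often low under all 3 scalings: 12 of the 92 with 500 or more reads were, against 206 of the 325 with 40 to 59 reads. Among all eligible regions these were 12 of 420 and 206 of 1217. Whether this difference follows from read depth and cluster calling was not tested.

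The members with the lowest ratios, among those with a cluster in all 3 PBS libraries, were small. LSM3 (chr3:14198174-14198336), a subunit of the ring that binds U6 snRNA, had 40, 17 and 41 reads in PBS and 7, 6 and 12 in arsenite. Its share was 247 ± 131 RPM in PBS and 20.7 ± 9.89 in arsenite, a ratio of 0.0838, which was 0.115 by the gene count total and 0.188 at like depth. The NUDT3 region (chr6:34288236-34288348), in the mRNA of a diphosphoinositol phosphatase, had 16, 11 and 20 reads in PBS and 0, 5 and 8 in arsenite, a ratio of 0.0550, which was 0.0892 by the gene count total and 0.0985 without PBS replicate 2. In NORAD, a long noncoding RNA known for binding Pumilio proteins, one region (chr20:36045743-36045814) had 16, 9 and 24 reads in PBS and 0, 9 and 12 in arsenite. The others were in TBL1XR1, RPS27A, ANKRD11, SF3B2, ARPC5, ASAH1, LYPLA1, the pseudogene LYPLA1P3 and 1 place with no annotated gene. Of these 12, LSM3 alone had a cluster in arsenite replicate 1, and all 12 had one in arsenite replicate 3, the deepest library. With so few reads the ratios rest on whether a cluster was called at all. Leaving out PBS replicate 2 or arsenite replicate 3 moved 7 of the 12 by over 1.5 times each. Leaving out arsenite replicate 1 raised the ratios of the 11 members with no cluster in it to 1.5 times their value. Without arsenite replicate 2 the ratios became 0.576 to 1.5 times their value. The 12 ratios ranged from 0.0921 to 0.275 without PBS replicate 2 and from 0 to 0.0964 without arsenite replicate 3.

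Between these extremes stood members of middling depth that were low under each scaling. RHOA, the small GTPase that organises the actin cytoskeleton, gave the lowest ratio of those described here. Its region at chr3:49359760-49360215, 615 nt from the annotated gene end, had 301, 95 and 297 reads in PBS and 77, 114 and 204 in arsenite. Its share was 1583 ± 556 RPM in PBS and 298 ± 53.5 in arsenite (SD, n = 3), a ratio of 0.188, with 0.255 by the gene count total and 0.280 at like depth. All 3 eligible RHOA regions were members. CAV1, the coat protein of caveolae, had 280, 75 and 233 reads in PBS and 117, 155 and 298 in arsenite at chr7:116560578-116561165, with ratios of 0.331, 0.443 and 0.497. EIF4E, the cap-binding translation factor, had 241, 69 and 197 against 88, 133 and 240 reads at chr4:98880415-98880928, with ratios of 0.299, 0.406 and 0.438. Its pseudogene EIF4EP2 shares sequence with it and is no separate observation.

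P4HB, a protein disulfide isomerase, had 248, 67 and 234 reads in PBS and 73, 167 and 265 in arsenite at chr17:81843589-81844043, with ratios of 0.301, 0.408 and 0.329. The sialomucin CD164 had 189, 53 and 167 against 77, 127 and 202 reads at chr6:109366516-109366751, with ratios of 0.337, 0.453 and 0.470. BANF1, a DNA-bridging protein of the nuclear envelope, had shares of 764 ± 52.9 RPM in PBS and 202 ± 72.3 in arsenite at chr11:66003710-66004117 (SD, n = 3), with ratios of 0.264, 0.335 and 0.386. CALM2 (calmodulin), RNPS1 (a splicing activator), LIN7C, the Y RNA gene RNY1 and a region that overlaps both LRRC75A and SNHG29 completed this set, with ratios of 0.362, 0.333, 0.346, 0.262 and 0.303.

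Members and other regions lay side by side in the same genes. Members were found in 708 of the 2188 protein-coding genes with an eligible region. In 282 of the 708 all eligible regions were members, 426 also held another eligible region, and 254 held a region with a ratio over 1. The genes with most members were EREG (6 of 10 eligible regions), which encodes the EGF-family ligand epiregulin, the kinase gene UHMK1 (6 of 10), the PP2A inhibitor gene ARPP19 (5 of 10), the 14-3-3 gene YWHAZ (5 of 9) and CBX5 (5 of 12), which encodes the heterochromatin protein HP1 alpha. In EREG the members' ratios ranged from 0.216 to 0.496, by the gene count total from 0.295 to 0.638 and at like depth from 0 to 0.798. The largest of them (chr4:74385250-74385622) had 231, 62 and 245 reads in PBS and 126, 229 and 354 in arsenite. In CBX5 the members were small, with 28 reads or fewer in PBS replicate 1 and ratios of 0.112 to 0.440, by the gene count total 0.160 to 0.590 and at like depth 0 to 0.929.

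CANX and PHLDA1, a gene chosen after its values were seen, held regions of both kinds. In CANX, 4 of 6 eligible regions were members, none farther than 2763 nt from the annotated gene end. A region 21574 nt from that end (chr5:179709927-179710067) had 6, 0 and 7 reads in PBS and 20, 38 and 72 in arsenite, a ratio of 5.02 and 3.33 at like depth. PHLDA1 had 4 members among 9 eligible regions, between 2957 and 4457 nt from the gene end, such as chr12:76028404-76028815 with 214, 53 and 206 against 97, 169 and 300 reads and a ratio of 0.412. The neighbour at chr12:76030507-76030840, 5060 nt from the end, had 108, 23 and 78 reads in PBS and 171, 286 and 454 in arsenite, with a ratio of 1.57 and 2.01 at like depth. Regions of the same gene thus lay on both sides of 1, also at like depth.

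**Figure D3:**
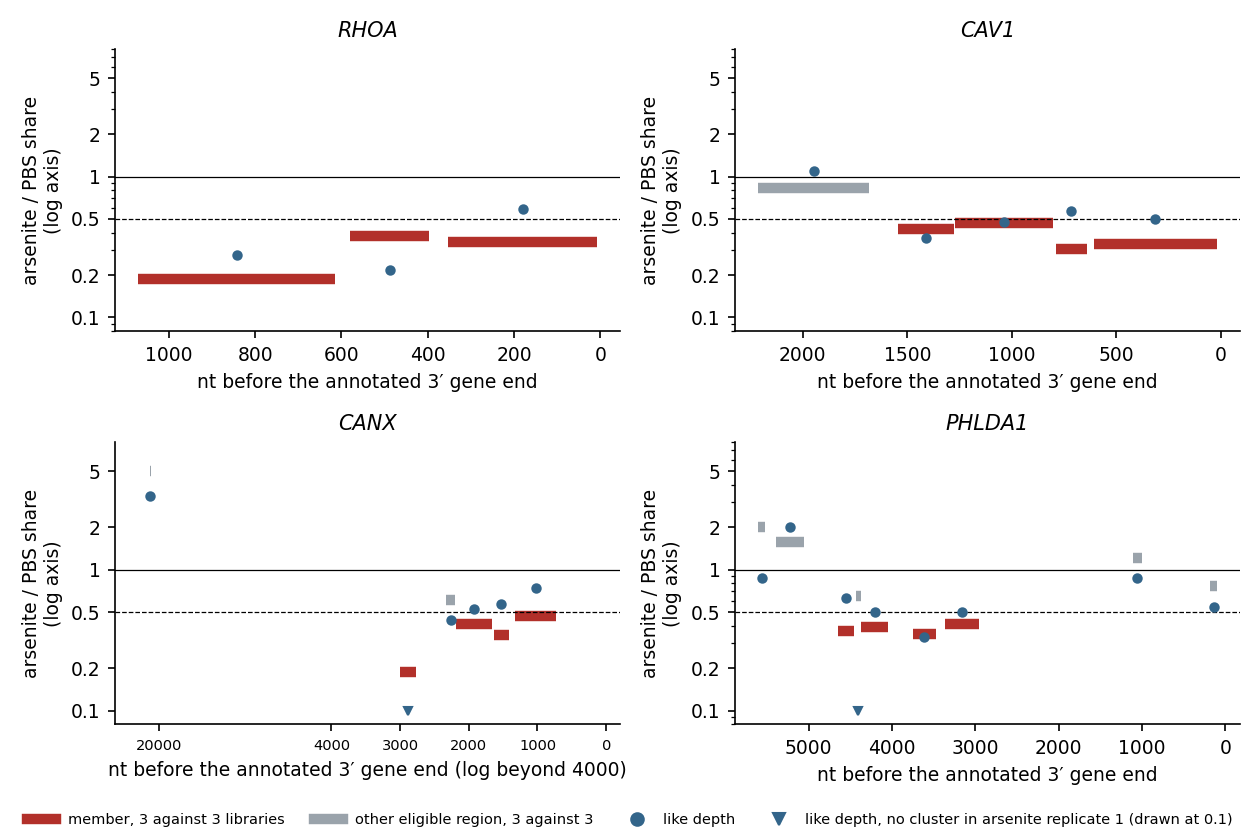
Ratio of the mean arsenite share to the mean PBS share (bars, log axis) for every eligible region of RHOA, CAV1, CANX and PHLDA1 against the distance from the annotated 3′ gene end in nt, with the transcript running left to right. Members are red and other regions grey, blue points give the ratio at like depth, and the lines mark 1 and 0.5. CANX and PHLDA1 hold regions above 1 upstream of their members, up to 5.02 and 2.01, and RHOA holds members only.

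Members lay nearer to the 3′ ends of genes and in shorter genes than the other eligible regions. The strand of the gene was known for 810 members and 3223 others. Of these members 46.4% lay within 1000 nt of the annotated gene end, against 34.1% of the others, and the median distance was 1216 nt against 1799 nt. Within 1000 nt of the gene start lay 1.11% against 1.21%. Of the regions less than 500 nt from the gene end 29.0% were members, and of those 20000 nt or more away 8.63%. The median ratio over all eligible regions rose from 0.692 in the nearest class to 1.42 in the farthest, by the gene count total from 0.827 to 1.68 and at like depth from 0.647 to 1.21. The median gene length was 24985 nt for members and 35465 nt for others, and members made up 31.1% of the regions in genes under 5000 nt and 14.7% in those of 100000 nt or more.

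Within genes the same order was seen. In 219 of 355 genes (61.7%) with a member and another eligible region the members' median distance from the gene end was the smaller. In 69.4% of the 206 genes with a member and a region with a ratio over 1 the members were nearer. These are distances along the genome to the outermost annotated end, introns included, since exons were not at hand, so they do not separate coding from untranslated sequence.

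**Figure D4:**
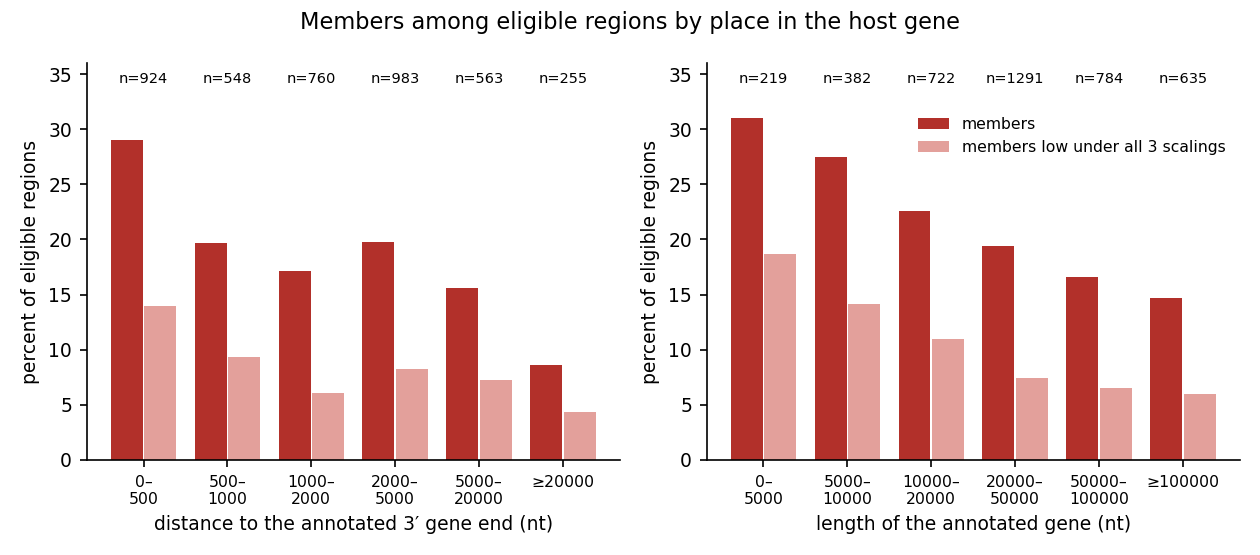
Percent of eligible regions that were members (red), and that were members low under all 3 scalings (pink), by distance to the annotated 3′ gene end (left) and by length of the annotated gene (right), in nt, with the number of eligible regions above each class. Members fall from 29.0% in the class nearest to the gene end to 8.63% in the farthest, and from 31.1% in the shortest genes to 14.7% in the longest.

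Gene lists, chosen with earlier results of these data known, are given as counts beside the 21.3% of all eligible regions. Of 13 eligible regions of endoplasmic reticulum chaperones 7 were members, in CALR, CANX and P4HB. CALR, the calcium-binding lectin chaperone, had shares of 659 ± 166 RPM in PBS and 252 ± 55.4 RPM (SD, n = 3) in arsenite at chr19:12944095-12944446, with ratios of 0.383, 0.506 by the gene count total and 0.526 at like depth. Of 24 regions of oxidative phosphorylation genes 12 were members, spread over 9 genes. In COX8A, a subunit of cytochrome c oxidase, the region at chr11:63976320-63976535 had 93, 18 and 56 against 16, 32 and 54 reads and ratios of 0.211, 0.280 and 0.235. COX6A1, another subunit, had a ratio of 0.323 and the cytochrome c gene CYCS 3 members with ratios of 0.255 to 0.331.

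Histone genes gave 4 members of 7 regions (H2AZ1, H2AZ2 and H3-3B) and glycolysis 10 of 26, in 8 genes that included ENO1 (0.384), PGK1 (0.259) and LDHA (0.439). Small ribosomal subunit genes gave 11 of 34 and large subunit genes 21 of 71. RPLP0, a protein of the ribosomal stalk, held 4 members among 5 regions, with ratios from 0.152 to 0.355 (0.179 to 0.462 by the gene count total and 0 to 0.669 at like depth), and RPS12 had 16, 6 and 13 reads in PBS against 0, 5 and 16 in arsenite. Actin and tubulin gave 9 of 37, all of them in the alpha-tubulin genes TUBA1A, TUBA1B and TUBA1C, which share sequence. The list of translation factors gave 15 of 80 and mitosis genes 2 of 12. The former list also held HNRNPA1 and TPT1, which had members but do not encode translation factors.

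Other lists had few members. The list of cytosolic chaperones, the heat shock proteins among them, had 3 members of 34 regions (in HSP90AB1 and HSPD1) and a median ratio of 1.79 over all 34. Of these 3 members 2 were in HSPD1, which encodes a mitochondrial chaperonin and not a cytosolic one. Targets of IGF2BP proteins known from other work had 6 of 62 (in CCND1, CDK6 and HMGA1) and a median of 1.085. Splicing factors had 3 of 31, sterol and lipid synthesis 2 of 18, and YAP and TEAD targets 1 of 16. Regions of 1 gene are not independent, so a list with few genes, such as the 3 with members among the endoplasmic reticulum chaperones, rests on few RNAs.

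By gene type 980 members (77.6%) lay in protein-coding genes, against 84.0% of the other eligible regions, 170 (13.5%) in pseudogenes against 10.1%, 13 in long noncoding RNA genes, 24 in small RNA genes and 76 outside any annotated gene. Of the members 389 (30.8%) shared a run of 25 nt with another eligible region, against 23.3% of the others, and joining those that do leaves 1083 distinct members. The largest such group, of 10 members, lay in HMGA1, its pseudogenes and MFSD2B, and a group of 5 in the pseudogenes HMGA1P1 and HMGA1P3. Groups of 6 lay in H3-3B, its relative H3-5 and MYBPC1, and in the alpha-tubulin genes, 2 tubulin pseudogenes and a place with no annotated gene. BANF1 with its pseudogenes made up 5. How reads that fit several such places were assigned is not given in the sources used here. Among the long noncoding RNAs, SNHG1 had 537, 191 and 540 reads in PBS and 301, 454 and 821 in arsenite, with a ratio of 0.393 and 0.607 at like depth. ZFAS1, another snoRNA host, had 55, 20 and 63 against 23, 37 and 61 reads, with a ratio of 0.284 and 0.422 at like depth.

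Of the 24 members in small RNA genes 19 were in tRNA genes, and 17 of these shared sequence with another eligible region. The largest, TRX-CAT1-1, had 254, 70 and 168 reads in PBS and 108, 187 and 247 in arsenite, with ratios of 0.374, 0.506 and 0.559. TRX-CAT1-1 also had 79 and 85 reads in the PBS and arsenite IgG lists. In the IgG lists of DMSO, TM 1 h and TM 4 h it had 26, 17 and 45. The IgG lists held 354 to 2762 cluster reads each. As a share of cluster reads it thus stood higher in each IgG list than in any PBS or arsenite library. In 5 of the 19 the ratio at like depth was over 1, such as TRR-TCG2-1 with 28, 25 and 29 against 34, 48 and 85 reads and a ratio of 0.463 that became 1.29. Membership of these 5 rests on the share in PBS replicate 2. The small cytoplasmic RNA gene RNY1 had a share of 1107 ± 752 RPM in PBS and 289.5 ± 74.2 in arsenite (SD, n = 3), and ratios of 0.262, 0.378 and 0.495. Without PBS replicate 2 the first of these became 0.428. RNY1 also had 24 reads in one of the PBS and arsenite IgG lists and none in the other.

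The tunicamycin and DMSO libraries, which the choice of members did not use, show what the same regions did under another stress. Of the 1263 members 1261 had a cluster in at least 1 DMSO library and 1079 in all 3. Of all 5937 eligible regions 5926 and 4839 did. In DMSO replicate 1, a library of like depth to PBS replicates 1 and 3, the members' share was a median of 0.933 times that in those PBS libraries, and 0.929 times in the other eligible regions. In TM 1 h replicate 2 the medians were 0.869 and 0.892, in TM 4 h replicate 1 they were 0.818 and 0.938, and in arsenite replicate 1 they were 0.412 and 0.896. These ratios share their PBS libraries.

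**Figure D5:**
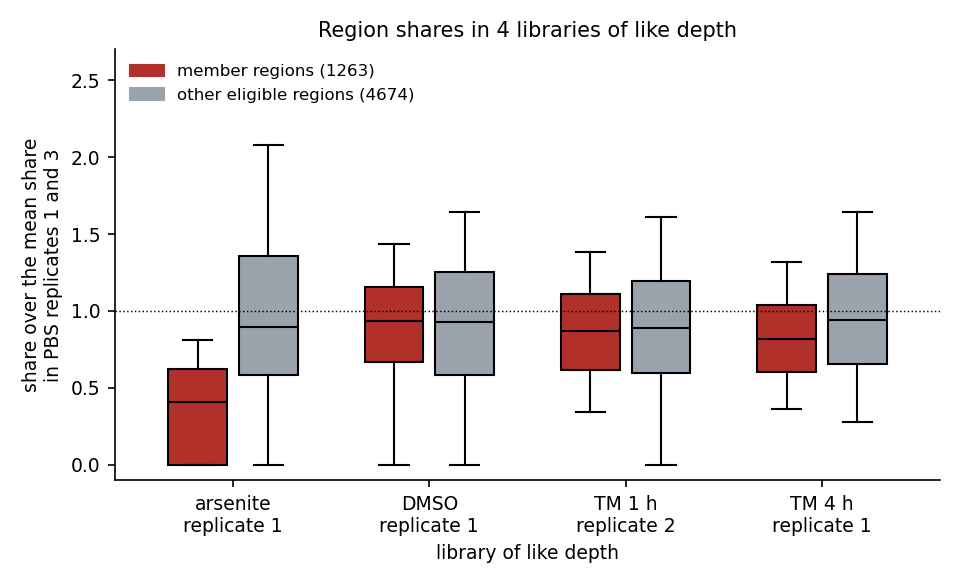
Share of each region in arsenite replicate 1, DMSO replicate 1, TM 1 h replicate 2 and TM 4 h replicate 1, each divided by the region's mean share in PBS replicates 1 and 3. Boxes give the quartiles and median and whiskers the 10th and 90th percentile, for members (red) and other eligible regions (grey). The members' median lies at 0.412 in arsenite and between 0.818 and 0.933 in the other 3 libraries.

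Reads of all regions with enough counts in the 9 DMSO and tunicamycin libraries entered 1 edgeR quasi-likelihood fit, and p-values were adjusted over 12651 regions by the Benjamini-Hochberg method. These included 1257 members. At TM 1 h 0 members were called at an adjusted p under 0.05, where 0% of all regions were, and DESeq2 called 0 members too, where it called 0.134% of all regions. At an unadjusted p under 0.05, 9 members were higher and 32 lower than in DMSO, where 0.506% and 2.23% of all regions were. With library totals in place of TMM (edgeR's scaling factors) 21 members were higher and 22 lower, where 0.893% and 1.87% of all regions were, so the lean to lower values depended on the scaling. At TM 4 h 0 members were called, where 0.0158% of all regions were, and 26 were higher and 19 lower at an unadjusted p under 0.05, where 1.48% and 0.996% of all regions were. With library totals this lean turned, to 18 members higher and 23 lower, where 1.22% and 1.09% of all regions were. With no filter on low counts the same test called 19 of 1263 members at TM 4 h, 4 higher and 15 lower, where it called 0.165% of all regions. At TM 1 h it called 10, 5 higher and 5 lower, where it called 0.0785%. A cluster of these libraries counted only for the region it overlapped most, so a region can stand at 0 beside a neighbour with reads. The LDHA member (chr11:18407616-18407823) had 206, 560 and 754 reads in DMSO and 298, 0 and 0 at TM 4 h. Whether such zeros made these calls was not tested. The 2 regions called with the filter were no members and lay in HSPA5, the endoplasmic reticulum chaperone BiP, and in its pseudogene HSPA5P1. The HSPA5 region (chr9:125236395-125236569) had 51, 127 and 207 reads in DMSO and 259, 664 and 766 at TM 4 h, a log2 difference of 2.25 with an adjusted p of 0.00373 by edgeR.

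The members' median log2 difference from DMSO was -0.10 at TM 1 h, where that of all regions was -0.21, and 0.00 at TM 4 h, where it was 0.07. With library totals in place of TMM factors these medians were 0.02 and -0.11 at 1 h and -0.06 and 0.02 at 4 h. The median standard error of a member's log2 difference was 0.49 at 1 h and 0.48 at 4 h. At this depth a member that was not called is not shown to be unchanged.

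For RHOA, LSM3 and HMGA1 no difference between tunicamycin and DMSO was called by edgeR. RHOA had 1175, 1194 and 1173 CPM in DMSO (counts per 1000000 reads in tested regions, scaled by TMM), 1449, 1211 and 1263 at TM 1 h and 1320, 1204 and 1278 at TM 4 h. The log2 differences of RHOA were 0.15 ± 0.11 and 0.10 ± 0.11 (SE), with an adjusted p of 1 at both times by edgeR. LSM3 had 278.6, 266.2 and 264.1 CPM in DMSO and 143.3, 229.4 and 196.1 at TM 4 h, a log2 difference of -0.50 ± 0.26. HMGA1 differed by -0.28 ± 0.14 at TM 4 h. P4HB had 927.1, 933.7 and 11.1 CPM in DMSO, so its DMSO replicate 3 stood far below the others. The adjoining P4HB member (chr17:81843168-81843585) had 420.5, 435 and 1202 CPM in DMSO, so in replicate 3 it was this region that held the reads, and no change can be read from either.

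The members with the smallest p at TM 4 h, named after their values were seen, did not move one way. EIF3F, a subunit of the translation factor eIF3, had 121.6, 140.6 and 112 CPM in DMSO and 260.6, 270.7 and 213.5 at TM 4 h, a log2 difference of 0.99 ± 0.24 with an adjusted p of 0.759 by edgeR. CALR had 420.5, 493.1 and 461.8 in DMSO and 664.6, 995.1 and 609.1 at TM 4 h, a log2 difference of 0.72 ± 0.18 (adjusted p of 0.85 by edgeR). SNHG1 had 2842, 2587 and 2168 in DMSO and 3618, 3671 and 3051 at TM 4 h, a difference of 0.45 ± 0.12. CAV1 had 1246, 1294 and 1334 in DMSO and 946.9, 917.8 and 978 at TM 4 h, a difference of -0.45 ± 0.12. In these 4 members the TM 4 h and DMSO libraries did not overlap. They were picked for a small p in this same contrast, so this adds no support for a change. None of the 4 passed the adjustment in edgeR. DESeq2 called 2 of them, EIF3F (adjusted p = 0.0183) and CAV1 (adjusted p = 0.00201), where it called 0.348% of all regions.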

How the data were processed

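The authors deposited a cluster list for each library and 1 table of gene counts, which are whole numbers and not normalized. Per the file headers a cluster line holds coordinates, strand, sequence, read counts and counts of conversion events, and a score of its mode position between 0.5 and 1 as deposited, which was not used. Per the submitters' processing notes the tools were bcl2fastq 2.20.0.422, UMI-tools 1.1.1, Trimmomatic 0.30, Bowtie 0.12.7 and featureCounts 2.0.1, with builds GRCh38.p13 and hg38. The cluster caller is not given in the sources used here. Clusters were called per library, so calls and totals depend on depth. More than 1 RNase concentration is stated, without the library each was used for.

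Host genes came from the RefSeq table of GRCh38.p14. Of 194 clusters inside RefSeq promoter windows, 194 had identical letters. Gene counts served as library totals only, because their identifiers could not be paired with names. Region counts went through edgeR 4.0.16 (R 4.3.3; filterByExpr, TMM, quasi-likelihood, 1 fit of 9 libraries), with DESeq2 1.42.0 as an alternative. The script was tested on simulated data for TM 4 h against DMSO, with 200 changed regions among 12651. It recovered 0.5% of 2-fold, 22% of 4-fold and 45.5% of 8-fold changes. Where the changed regions had a mean of at least 50 reads, it recovered 6%, 80% and 98.5%. Beside these it called 1, 8 and 8 unchanged regions in the first setting and 2, 10 and 13 in the second. It called 0 regions where nothing was changed.

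The members and gene lists were chosen with earlier results of these data known. Named were the 12 members with the highest PBS share, the 12 with the lowest ratio among those with a cluster in all 3 PBS libraries, those in the 5 genes with most members, up to 5 per direction called in tunicamycin, and the 3 regions nearest to the limit on each side. Members described as chosen after their values were seen lie outside this rule. The sequence of 1 member with a high PBS share is not reported here.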

Additional observations from a re-analysis of the deposited data

How the results depend on the processing

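The rule gave 1263 regions. It gave 1979 with 20 reads in place of 40, 751 with 80 reads, 656 with shares of the gene count total, 455 with a ratio of at most 1 in 3, and 629 with arsenite replicate 1 against PBS replicates 1 and 3 (chosen after seeing the data), of which 375 were members; the 40 reads were then counted over these 3 libraries alone, which left 3321 eligible regions. Merging by 10 nt gave 1290, a cluster in all 3 PBS libraries 898, a total without mitochondrial reads 1326, and the median in place of the mean 1217. Leaving out 1 library gave 904 to 1458 regions, of which 835 (without PBS replicate 2) to 1035 (without arsenite replicate 1) were members. For the 36 members named by level, by ratio or for being low under each scaling, no ratio rose above 1 in any setting. At TM 4 h edgeR called 0 members and 2 regions. DESeq2 called 2 members and 44 regions, no filter on low counts 19 and 65, and library totals, a mean of at least 10 reads or of at least 50 reads (chosen after seeing the data) 0 and 1. Replicates 1 and 2 alone gave 0 and 0. Leaving out 1 library gave 0 to 1 members and 0 to 6 regions. At TM 1 h edgeR called 0 members and 0 regions, also with each library left out, DESeq2 0 and 17, and no filter 10 and 31. The replicate block gave 0 members and 1 region at 4 h and 0 and 0 at 1 h. Correlations of deviations between libraries of the same number were -0.0156 to 0.192, not all over 0.1. The library names set replicate 3 (0.182 to 0.192) apart from replicates 1 and 2 but do not separate these, so the numbers were not taken to pair the libraries. The causes were not tested. The share of members in each part of the transcript was not run, since exons were not at hand, nor was the host gene ratio, since gene identifiers could not be paired with names. At 40 to 59 reads a region's ratio rests on few reads per library.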
